A study of Mus musculus with 5 samples.

Results

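Of the 5638 Foxf1 peaks on chromosomes 1 to 19 and X, 414 had their summit outside every protein-coding gene and more than 50 kb from every end of one. Leaving out the 29 of them that shared at least 1 base with a Hand1 peak gives the 385 distal peaks described here (6.83%, exact 95% binomial interval 6.18% to 7.52%). They lie in 377 distinct regions because some regions carry several summits. They were chosen by the position of their summits relative to genes and by the absence of Hand1 overlap, so both are given below only as a description. Peak here means 1 line of the deposited list, which held 5703 lines in all. "Intergenic" applied only to protein-coding genes: 88 of the 385 summits lay inside a gene for a long non-coding RNA (lncRNA), 13 inside a gene of another type, and 284 inside no gene of the table.

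The study mapped HA-tagged Hand1 and Foxf1 by chromatin immunoprecipitation and sequencing in E14 cells, a mouse embryonic stem cell line that was steered in culture toward heart cell types. The cells were kept as embryoid bodies for 48 h in medium without serum, with ascorbic acid and monothioglycerol. They were then re-aggregated for 40 h with VEGF, Activin A and BMP4 (the stage labelled MES), and finally grown in a monolayer for 32 h with VEGF, basic FGF and FGF10 (the stage labelled CP). The Foxf1 list comes from CP cells carrying an inducible Foxf1-HA overexpression construct, with the Foxf1 gene itself still present, so the sites are those of an added, tagged protein; the inducer and the number of clones are not given in the sources used here. The Hand1 list, used to leave out shared peaks and in a comparison of summit sequences, comes from MES cells of a Hand1-HA knock-in line. An input library, made from chromatin before precipitation, stands beside each stage. There are 2 Foxf1 libraries and 1 list, assigned to replicate 1. Whether the libraries were pooled for it is not given, so no value below has a replicate error and no test between groups was possible. Factor, stage and mode of expression differ together between the lists. The lists give no library depth; the number of fragments at each summit was inferred, and the distal summits held a median of 26 fragments and at least 18.

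Foxf1 is a transcription factor of the forkhead family, whose members bind DNA through a winged-helix domain and favour words such as TGTTTAC. It acts in the mesoderm that lines the gut and lung, in blood vessel formation and in the early heart field, and responds to hedgehog and BMP signals. Distal elements called enhancers can act on a gene over long stretches without other genes, and such gene-poor stretches often lie beside genes that direct development. CTCF is a zinc-finger protein that holds chromatin loops between distant sites. A peak far from genes is not by itself an enhancer, and the gene it might act on cannot be read from its position.

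The sequence at the summit could be shown for the distal peaks whose summit fell in a RefSeq promoter window (build GRCm38.p6), the 300 bp from 250 bp before to 50 bp after an annotated start. This was the case for 11 of the 385 peaks, at the starts of 12 genes, all typed as lncRNA. The forkhead word TGTTTAC, its variant TGTTTGC, the further variant TGTTTAT and the CTCF consensus were searched on both strands, and matches are in capitals below. The CTCF consensus was added after the sequences had been seen, and up to 1 mismatch in its 14 letters was allowed. The windows shown run up to 60 bases to each side of the summit, in the direction of the gene. The first 4 hold TGTTTAC on either strand, and the other 4 show the CTCF match alone. They are Gm31408 (chr9:31559576-31559696, plus strand), 4930432J09Rik (chr14:104027264-104027384, minus), E130102H24Rik (chr4:101356199-101356293, minus), Gm32954 (chr17:79451665-79451776, minus), Gm41414 (chr16:5306752-5306872, plus), Gm39955 (chr2:147256876-147256996, minus), Gm13652 (chr2:75138027-75138147, minus) and Gm13404 (chr2:33973541-33973661, plus).
Gm31408: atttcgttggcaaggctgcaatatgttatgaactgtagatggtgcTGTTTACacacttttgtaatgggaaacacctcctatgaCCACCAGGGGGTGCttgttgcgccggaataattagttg
4930432J09Rik: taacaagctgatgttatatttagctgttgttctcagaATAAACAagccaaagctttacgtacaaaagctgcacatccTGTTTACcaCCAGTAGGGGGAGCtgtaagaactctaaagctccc
E130102H24Rik: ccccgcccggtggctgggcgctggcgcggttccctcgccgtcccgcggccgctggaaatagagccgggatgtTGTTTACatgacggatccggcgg
Gm32954: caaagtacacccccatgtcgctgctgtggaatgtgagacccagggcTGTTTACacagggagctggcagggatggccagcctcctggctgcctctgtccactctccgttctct
Gm41414: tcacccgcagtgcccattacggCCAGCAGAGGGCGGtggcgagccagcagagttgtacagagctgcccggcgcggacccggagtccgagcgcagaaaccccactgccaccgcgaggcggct
Gm39955: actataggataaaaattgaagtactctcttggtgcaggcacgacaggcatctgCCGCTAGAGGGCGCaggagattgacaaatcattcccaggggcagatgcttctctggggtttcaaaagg
Gm13652: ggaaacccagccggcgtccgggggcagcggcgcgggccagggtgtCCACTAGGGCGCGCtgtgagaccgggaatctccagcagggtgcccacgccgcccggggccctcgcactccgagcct
Gm13404: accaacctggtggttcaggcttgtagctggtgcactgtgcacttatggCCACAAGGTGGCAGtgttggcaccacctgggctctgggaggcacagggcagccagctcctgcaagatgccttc
Base 61 of each printed sequence is the summit. In 4930432J09Rik the capitals at the left end are TGTTTAT read from the other strand.

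A TGTTTAC word stood in the windows of 4 of the 11 distal peaks. It was present in 55 of 648 windows (8.49%) at the other Foxf1 summits, in 3.67% of all 32619 promoter windows and in 4.84% of the lncRNA windows. The centre of the word lay 11 bp from the summit in Gm32954, 12 bp in Gm31408, 15 bp in E130102H24Rik and 20 bp in 4930432J09Rik, so all 4 words lay close to the summit. A CTCF match was held by 8 of the 11 windows, against 239 of 648 (36.9%) at the other Foxf1 summits, 2.30% of all promoter windows and 1.69% of lncRNA windows. With no mismatch allowed it was 1 of 11 (9.09%) against 49 of 648 (7.56%) and 0.337% of all windows. With up to 2 mismatches it was 10 of 11 (90.9%) against 72.5% and 14.4%. With only 11 windows, 1 match cannot show whether the distal share stays higher without mismatch. At the 25 Hand1 summits inside a window that overlapped no Foxf1 peak there was no match with up to 1 mismatch. With up to 2 mismatches 4 of these 25 windows held a match, against 14.4% of all windows. As only 2.30% of all windows match with up to 1 mismatch, 25 windows are too few to tell Hand1 summits from promoter windows in general. The centre of the match with up to 1 mismatch lay 0.5 to 32.5 bp from the summit of the distal peaks (median 9 bp), and a median of 15.5 bp at the other Foxf1 peaks. Both Gm31408 and 4930432J09Rik held TGTTTAC and the CTCF match side by side, and 4930471G24Rik held neither with up to 1 mismatch. The variant TGTTTGC was in 0 of the 11 windows, 2.78% of windows at the other Foxf1 summits and 5.08% of all windows. The variant TGTTTAT was in 1 of the 11, 2.31% and 4.61%. A forkhead word of any of these kinds was in 4 of the 11 windows, 13.0% at the other Foxf1 summits and 12.5% of all windows. Of the other words searched, the GATA word AGATAA was in 1 of the 11 windows against 11.2% of all windows, the TEAD word GGAATG in 3 against 14.6%, the E-box word CAGCTG in 1 against 16.4%, the E-box word CATCTG in 1 against 17.1%, and the AP-1 word TGANTCA in none against 7.85%. A match is only a word in the sequence; whether a protein sat on it was not tested, and the 11 windows all belong to annotated starts and do not stand for the other distal peaks.

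The strongest of these start-site peaks had a fold of 14.6 at the divergent pair Gm41414 and Gm52265, 50.9 kb from Eef2kmt, which encodes a methyltransferase of elongation factor 2. Fold is the authors' enrichment of the summit over the background of the peak caller, on a linear scale, and belongs to the peak itself. The next was at Gm31408 (fold 11.8), 286 kb from Barx2, a homeobox gene. Gm13652 (fold 11.5) lies beyond Mtx2, the neighbour of the Hoxd cluster of body-axis genes. E130102H24Rik (9.98) lies between Jak1, a kinase of cytokine receptors, and Ak4. The remaining 7 had folds of 7.69 to 9.96.

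The number of peaks was set beside the length of sequence in each class of distance, as a description, since distance chose the peaks. Sequence more than 50 kb from a protein-coding gene made up 953 Mb, or 36.5% of the span from the outermost to the outermost gene or peak of each chromosome, and held 7.04% of the 5466 Foxf1 peaks without Hand1 overlap. That was 0.404 peaks per Mb against 2.09 over the whole span, or 5.18-fold fewer. The number per Mb was 0.962 at 50 to 100 kb (196 peaks), 0.437 at 100 to 200 kb (97 peaks), 0.278 at 200 to 500 kb (80 peaks) and 0.0501 beyond 500 kb (12 peaks). It was 2.67 inside protein-coding genes, 20.3 within 1 kb outside them and 2.72 from 1 to 50 kb. Within the distal peaks, too, the number per Mb was lower in each class than in the class before it. Stretches where reads cannot be placed, such as assembly gaps and repeats, are part of the span, and their share in each class was not measured.

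**Figure D1:**
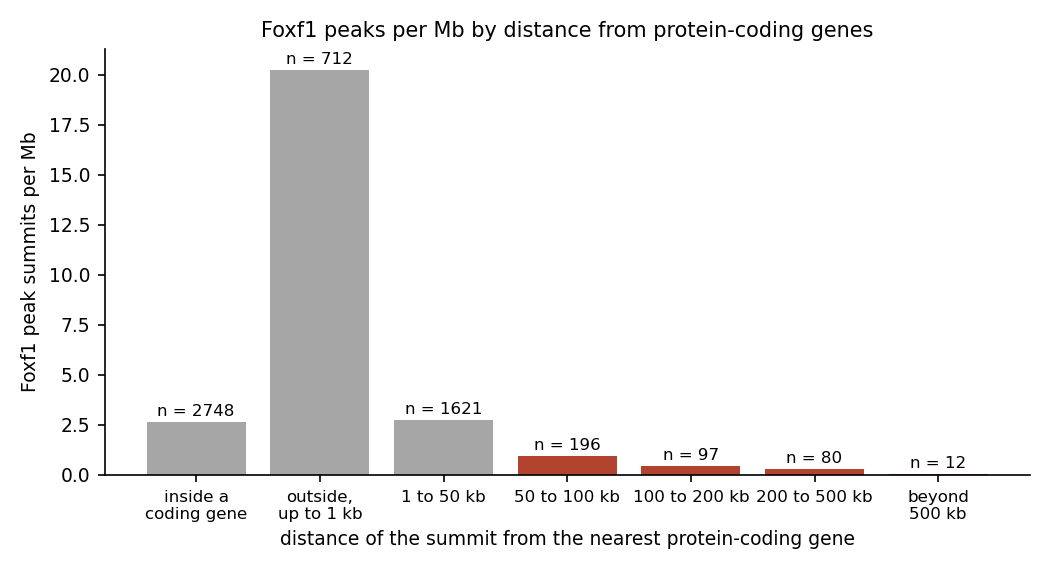
Foxf1 peak summits per Mb of sequence (bars, linear axis from 0) in 7 classes of distance from the nearest protein-coding gene, with the number of peaks above each bar; the 4 red classes are the 385 distal peaks. The bar within 1 kb stands at 20.3 per Mb, and the red bars step down from 0.962 to 0.0501.

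The median distal summit lay 99.1 kb from the nearest protein-coding gene (interquartile range 69.8 to 197 kb), and 189 lay beyond 100 kb. The 3 peaks just inside the limit were at 50.055 kb (chr16:93533229-93534017, fold 13.6, between Runx1 and Setd4), 50.524 kb (chr8:24386526-24386828, fold 8.14, between Zmat4 and Tcim) and 50.856 kb (chr16:5306557-5307037, fold 14.6, between Eef2kmt and Rbfox1). The 3 just outside it were at 49.936 kb (between Slitrk5 and Gpc5, fold 8.71), 49.615 kb (between Adam6a and Zfp386, fold 7.94) and 49.067 kb (between Ephb1 and Ky, fold 6.25). The most remote summit (chr1:103026259-103026997, fold 11.1) lay 1742 kb from Cdh20, a cadherin gene, in an interval of 4278 kb that ends at Cntnap5b, a gene of the contactin-associated family of neuronal surface proteins. It was followed by a peak 771 kb from Tenm3, a teneurin gene of neuronal wiring (chr8:50293558-50293959, fold 7.52), and by a peak 699 kb from Mctp2 (chr7:71379013-71379378, fold 8.96). These 3 remote peaks did not have a raised control level.

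The median fold of the distal peaks was 7.73 (interquartile range 6.88 to 8.82), against 7.73 at 1 to 50 kb, 7.61 within 1 kb and 7.61 inside genes. The ranges differed: from 1.43 to 20.1 for the distal peaks, 2.69 to 26.5 at 1 to 50 kb, 4.10 to 31.1 within 1 kb and 2.82 to 61.3 inside genes. A fold of 10 or more was reached by 55 distal peaks (14.3%) and by 17.4% of all Foxf1 peaks without Hand1 overlap. The regions were narrower, with a median of 459 bp against 522 bp for all of those peaks. The median of the authors' −log10 q-value was 14.4, against 15.1. All these values come from the peak call that also made the list, so they were not tested.

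The 10 distal peaks of highest fold lay in 10 different intervals. The strongest (fold 20.1, chr10:111672740-111673190) lay 164 kb from Phlda1, a gene of the cellular stress and growth factor response, and 300 kb from Krr1. It was followed by a peak of fold 19.5 inside the lncRNA gene Gm32293 between Lgalsl and Peli1 (chr11:20958124-20958679), and by a peak of fold 18.5 inside the lncRNA gene Gm31686 between Npvf, which encodes a neuropeptide, and Gm38821 (chr6:50937064-50937490). A peak of fold 16.8 lay 67.2 kb from Smad2, the intracellular mediator of Activin and Nodal signals (chr18:76378439-76379226), with another of fold 11.1 a few kb away. The fifth (fold 15.6, chr7:82056460-82057319) lay 64.5 kb from Bnc1, and the sixth (fold 15.2, chr10:99929605-99930210) 85.7 kb from Kitl, which encodes the ligand of the Kit receptor. A peak of fold 14.7 inside Gm35440 (chr12:77781288-77781779) stood between Fut8, a fucosyltransferase gene, and Gm6657. The peak near Eef2kmt named above had a fold of 14.6, and a peak 61.6 kb from Emp1 on the Grin2b side (chr6:135444552-135445139) a fold of 14.4. The tenth, with a fold of 13.6, was the peak 707 kb from Runx1, the regulator of blood cell formation. None of the 10 had a high control level.

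A small set of distal peaks stood on high control signal. The control level is the background at the summit, inferred from the authors' fold and p-value, and is called high at 5 times the lowest level in the list, which is 7.83. It was high for 23 of the 385 peaks (5.97%, exact 95% binomial interval 3.82% to 8.83%, counting error only), against 1.97% at 1 to 50 kb, 1.02% inside genes and 1.66% of all those peaks. The share was 2.55% at 50 to 100 kb, 6.19% at 100 to 200 kb and 15.0% at 200 to 500 kb, and 0 of the 12 peaks beyond 500 kb, a number that allows a share of up to 26.5% (exact binomial bound). Of the 23, 11 lay in the first stretch of chromosome 9 before Alkbh8, with folds of 1.43 to 1.86 at control levels of 588 to 3072. These 11 are among the 12 high-control peaks at 200 to 500 kb. Without that stretch the share was 1 of 69 (1.45%) at 200 to 500 kb and 12 of 374 (3.21%) over the distal peaks, so the high share at 200 to 500 kb rests on that locus. A further 4 lay between 9530057J20Rik and Gm15319 on chromosome 8 (folds 4.06 to 4.90), and 3 were summits of 1 region between Tcp10c and Tcte2 on chromosome 17 (folds 2.91 to 3.62). The other 362 lay in 296 intervals between genes.

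**Figure D2:**
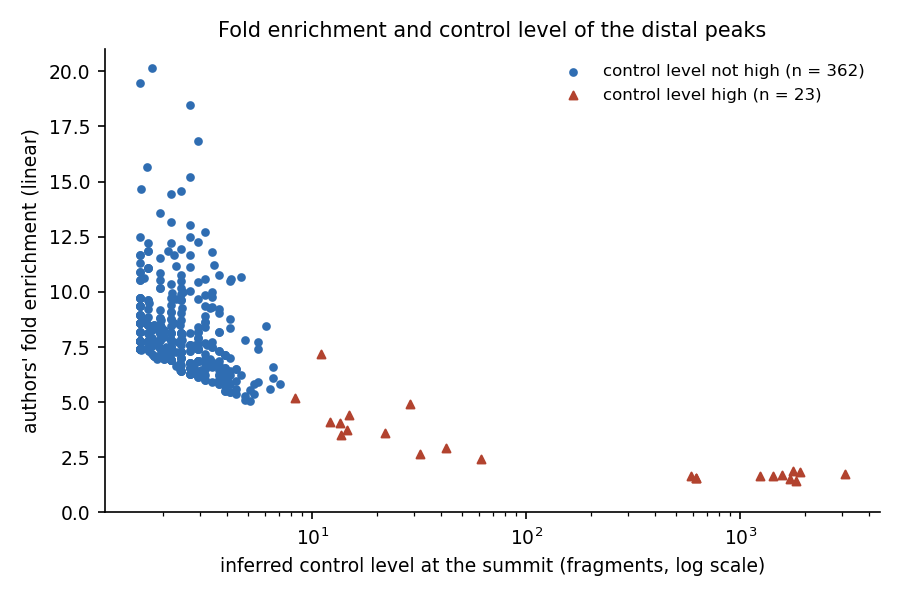
Authors' fold enrichment (linear axis) against the inferred control level at the summit (fragments, log axis) for the 385 distal peaks; each point is 1 peak. The 362 peaks without a high control level (blue dots) reach a fold of 20.1, and the 11 triangles at the far right are the peaks before Alkbh8 with folds under 2.5.

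A gene-poor interval is here the stretch between neighbouring protein-coding genes. Of the 2784 intervals long enough to hold a distal peak, 303 (10.9%) held at least 1. Intervals with a peak had a median length of 380 kb, and all 2784 had a median of 227 kb. The share rose with length, from 5.42% at 100 to 200 kb to 13.5% at 200 to 500 kb, 17.3% at 500 to 1000 kb and 18.3% above, while the number of peaks per Mb fell from 1.48 to 0.130. Longer intervals thus held a peak more often, but not in proportion to their length. A lone distal peak was found in 249 intervals, and 54 intervals held 2 or more (136 peaks), of which 16 held 3 or more (60 peaks).

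The interval with the most peaks was the stretch before Alkbh8 with its 11 high-control summits. Next came 5 peaks between Adam6a and Zfp386 on chromosome 12, an interval of 2501 kb with folds of 6.89 to 11.7, all of them inside Igh. Igh is the immunoglobulin heavy chain locus, whose gene segments the table does not type as protein-coding, so that "gene-poor" does not describe it. The light chain locus Igk held 1 peak (fold 5.80) and the T cell receptor locus Tcrb 1 (fold 7.40). Without these 7 peaks the number of distal summits in genes of another type falls from 13 to 6.

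The interval between Irf8 and Foxf1 held 4 distal peaks, more than any other without high control signal outside the Igh locus. In this 328 kb interval on chromosome 8, the summits lay 256 kb (chr8:120827911-120828636, fold 7.73), 197 kb (chr8:120887215-120887726, fold 5.59), 186 kb (chr8:120898022-120898440, fold 6.33) and 114 kb (chr8:120970307-120970708, fold 7.40) from Foxf1 on the side of Irf8, a factor of myeloid cells. On the other side, past the neighbouring forkhead genes Foxc2 and Foxl1, the 400 kb interval up to 1700018B08Rik held 3 more. They lay 147 kb (chr8:121234902-121235625, fold 7.01), 286 kb (chr8:121374241-121374777, fold 5.82) and 295 kb (chr8:121382533-121383249, fold 6.54) from Foxf1. The 7 folds run from 5.59 to 7.73 and are all at or below the median of the distal peaks. The control levels at the 4 peaks on the Irf8 side were 5.60, 6.33, 3.89 and 2.92. At the 3 on the other side they were 4.14, 5.36 and 3.89. All were above the distal median of 2.43 but not high. The −log10 q-value was 26.2 at the peak 256 kb away and 13.5 to 17.2 at the others. Only that peak stays in when a −log10 q-value of at least 20 is asked for.

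Nearer to Foxf1, peaks outside the distal set lay 4.70 kb and 16.1 kb from the gene, both inside Mthfsd, and 25.3 kb away beside Foxc2, where the fold of 9.06 was the highest of the locus. The lncRNA gene Fendrr, the divergent partner of Foxf1 with a role in heart and body wall mesoderm, spans from 29.5 to 1.28 kb before Foxf1. No Foxf1 peak, distal or not, lay inside Fendrr. None of the 7 distal summits lay inside a lncRNA gene, although the table places lncRNA genes on both sides of them.

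**Figure D3:**
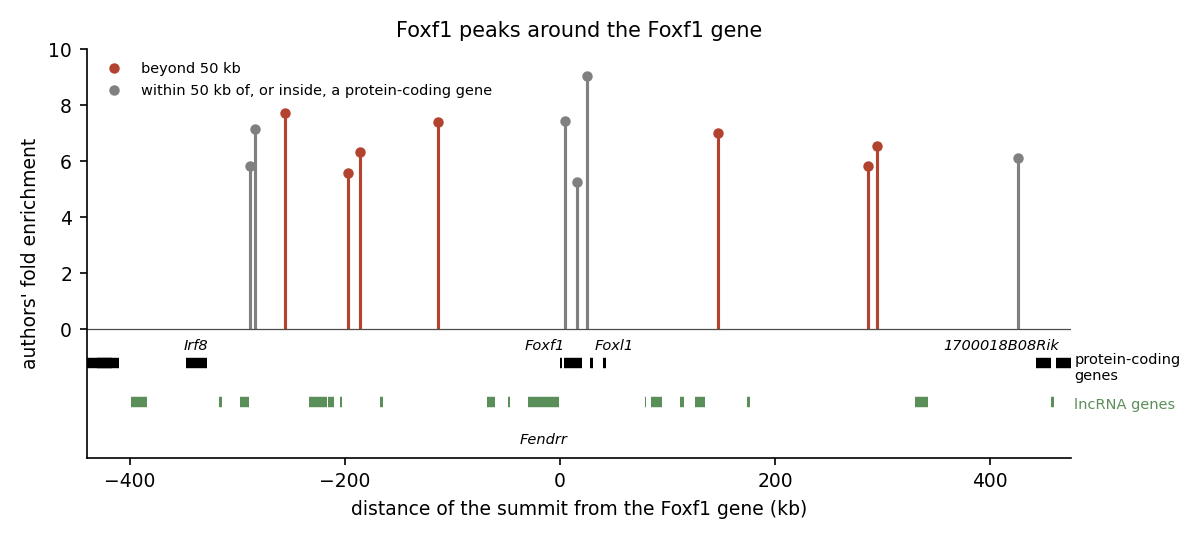
Authors' fold enrichment (linear axis) of each Foxf1 peak against its distance from the Foxf1 gene in kb, with protein-coding (black) and lncRNA genes (green) as bars below. The 7 red distal peaks lie between 114 and 295 kb from Foxf1 at folds of 5.59 to 7.73, and the highest point, at 25.3 kb, is the peak beside Foxc2.

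In all, 12 intervals held 3 distal peaks each, and the 6 of highest summed fold follow. The 575 kb stretch between Mtx2 and Gm50595 held 3 with folds of 7.46, 11.5 and 8.96, of which 2 lay inside the lncRNA gene 2600014E21Rik. The 757 kb interval between Runx1 and Setd4 held 3, with folds of 5.39, 7.61 and 13.6 at 467, 628 and 707 kb from Runx1, so that the strongest was the most remote from it and the nearest to Setd4. The 725 kb interval between Ddhd1 and Bmp4, which encodes a ligand of mesoderm and heart formation, held 3 peaks at 611, 360 and 265 kb from Bmp4, with folds of 6.59, 6.65 and 10.9. On the other side of Bmp4 another peak, inside the lncRNA gene Gm34756, lay 101 kb away with a fold of 8.64.

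The 1203 kb interval between Sall1, a zinc-finger gene of kidney and limb development, and Tox3 held 3 peaks with folds of 7.74, 6.95 and 8.42. They lay 528, 741 and 957 kb from Sall1, the last of them 246 kb from Tox3. The interval between Prok2, which encodes the secreted factor prokineticin 2, and Rybp, a gene of the Polycomb complex, held 3 with folds of 10.5, 6.41 and 5.95. The interval between Thap1 and Zfp703 held 3 with folds of 8.15, 6.00 and 6.89. No peak of these intervals had a high control level. Each interval except the stretch before Alkbh8 rests on 5 peaks or fewer.

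The flanking genes were counted list by list. In all, 580 of 21627 protein-coding genes (2.68%) flanked an interval with a distal peak, or 12.8% of the 4517 genes that border an interval of over 100 kb, the only genes that could. Against that second share, cardiac and mesoderm factors counted 5 of 34 that could, signalling ligands 4 of 34, neural genes 2 of 16, pluripotency genes 2 of 12 and neuronal adhesion and guidance genes 11 of 68. These counts are close to the background share of 12.8%, which is not matched for interval length. The median longest interval was 1984 kb for the neuronal adhesion and guidance genes, 217 to 444 kb for the other lists just named and 237 kb over all genes. Of all genes beside an interval of over 1000 kb, 18.9% had a distal peak there. The share of 16.2% for the neuronal adhesion and guidance genes covers all their intervals of over 100 kb. A share matched for length was not computed for that list. Endothelial and blood genes counted 4 of 11, endoderm genes 3 of 4, and genes of the hedgehog pathway 0 of 9. With so few genes a list, 1 gene more or less changes the shares by many percentage points.

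Among the cardiac and mesoderm factors, the genes with a distal peak were Foxf1, Gata6, Irx4, Mef2c and Tbx3. Irx4, a homeobox gene of the heart ventricle, shared its interval with Irx2, and the peaks there had folds of 10.5 (chr13:73033026-73033451, 226 kb from Irx4) and 11.7 (chr13:73160181-73160724, 99.1 kb). Mef2c, an activator of heart and skeletal muscle genes, had peaks at 58.1 kb (fold 9.26, inside the lncRNA gene C130071C03Rik) and at 466 kb (fold 9.35). Gata6, a zinc-finger factor of heart and endoderm, had 2 summits of 1 region 266 kb away (chr18:11351764-11352653, folds 7.80 and 6.89). Tbx3, a T-box gene of the conduction system and limb, had 1 at 421 kb (fold 7.52).

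The endoderm genes were Gata6, Foxa2 and Cxcr4. Foxa2, a forkhead gene of the endoderm and notochord, had a peak 65.2 kb away with a fold of 8.14, and Cxcr4, a chemokine receptor gene that also marks definitive endoderm, had one at 240 kb with a fold of 8.18. The endothelial and blood genes were Runx1, Nrp2, Lmo2 and Cdh5. A peak of fold 11.3 lay 146 kb from Nrp2, a co-receptor for VEGF and semaphorins, and one of fold 7.73 lay 85.8 kb from Lmo2, a cofactor of blood cell genes. The peak nearest to Cdh5, the cadherin of endothelial junctions, lay 72.8 kb away inside Gm32728 with a fold of 5.83, and its control level of 7.06 was just under the limit for high.

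Of the signalling ligands, Bmp4, Bmp7, Chrd and Gdf10 bordered an interval with a distal peak. Bmp7 and Gdf10 are, like Bmp4, genes of secreted ligands of the TGF-beta superfamily, and Chrd encodes chordin, which binds BMPs. The 309 kb interval between Tfap2c and Bmp7 held 2 peaks (folds 10.8 and 8.16) at 109 and 94.6 kb from Bmp7. Chrd had a peak at 62.3 kb (fold 6.25) and Gdf10 one at 228 kb (fold 7.77). The pluripotency genes were Sox2, with a peak of fold 10.5 at 101 kb, and Nr5a2, with a peak of fold 7.28 at 117 kb. The neural genes were Lhx2 (fold 7.31 at 60.4 kb) and Pou4f1 (fold 7.69 at 434 kb). Each of these peaks has another flanking gene, and position does not favour either.

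Genes of developmental transcription factor families were set apart by symbol, a list made after the flanking genes had been seen, so its counts are only a description. Of its 259 genes, 130 border an interval of over 100 kb, and 44 of these (33.8%) had a distal peak there. Their intervals were longer, with a median of 339 kb for the longest one of each gene against 237 kb over all genes. Within length classes the share was 20.8% against 5.82% of all genes at 100 to 200 kb, 32.0% against 14.3% at 200 to 500 kb, 30.0% against 18.3% at 500 to 1000 kb and 40.0% against 18.9% above 1000 kb. The listed genes were above all genes in each class, but the list was made with the flanking genes in view. The part of interval length was therefore not tested. A gene beside intervals of 2 classes counts in both. The 45 intervals beside them held 65 distal peaks with a median fold of 7.52, none with a high control level, and 14 of the 45 (31.1%) held 2 or more peaks, against 54 of the 303 intervals with a distal peak (17.8%).

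After Foxf1 with 4, the genes with most distal peaks in this list were Foxl1, Runx1, Sall1, Klf14 and Hes1, each with 3. The 3 peaks between Klf14 and Mkln1 had folds of 6.50 to 7.49, and those beside Hes1, a target of Notch signals, had folds of 5.52 to 6.12. The highest fold in this list after the peak in the Runx1 interval was 12.2, 62.2 kb from Pax2, a paired-box gene of kidney and eye. Olfactory receptor genes counted 2 of 30 (6.67%) and vomeronasal receptor genes 1 of 75 (1.33%), with median longest intervals of 152 and 133 kb. Of all genes beside an interval of 100 to 200 kb, 5.82% had a distal peak there. Of the 2 olfactory receptor genes, Olfr161 counts only through a high-control peak (control level 11.0). Protein-coding genes with predicted names counted 36 of 427.

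**Figure D4:**
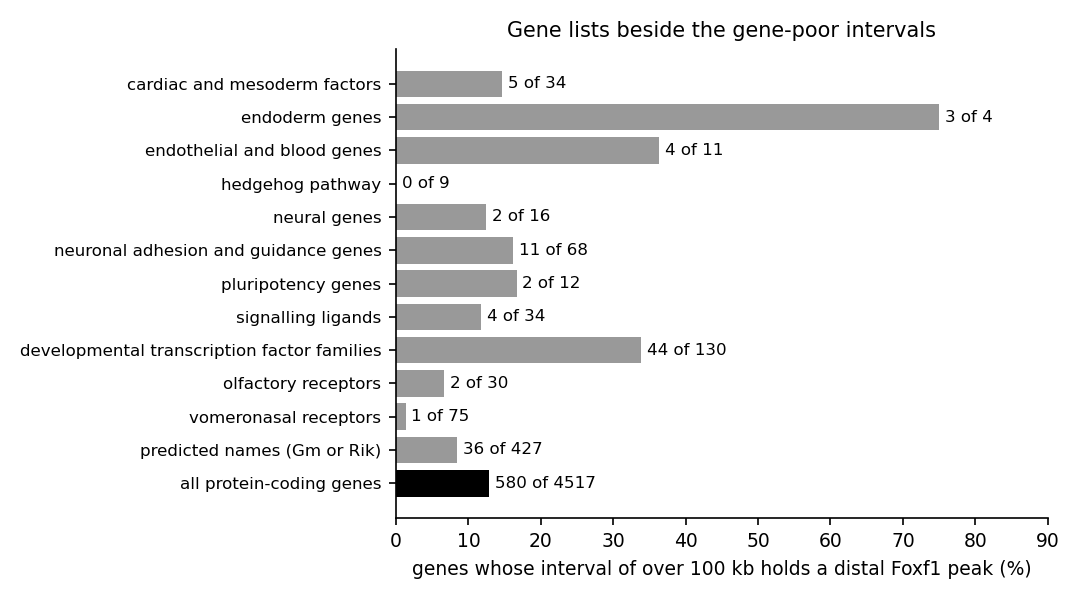
Share of genes that border an interval of over 100 kb and have a distal Foxf1 peak in it (bars, percent, axis from 0), for each gene list and for all protein-coding genes (black), with the counts beside the bars. The black bar stands at 12.8% and the developmental transcription factor families at 33.8%; the endoderm bar rests on 4 genes.

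A lncRNA gene held 88 of the 385 distal summits (22.9%, exact 95% binomial interval 18.8% to 27.4%). Such genes cover 10.6% of the sequence beyond 50 kb, and they held 18.5% of the 1621 Foxf1 summits at 1 to 50 kb. Near the ends of lncRNA genes, 41 distal summits (10.6%) lay within 1 kb of one, where 1.44% of the sequence lies, and 135 (35.1%) within 10 kb, where 10.8% of the sequence lies. The shares at 1 to 50 kb were 11.3% and 37.6%, close to those of the distal peaks. The sequence shares are not matched for distance: 196 of the 385 distal summits lay at 50 to 100 kb, which is 204 of the 953 Mb. They also include sequence where reads cannot be placed, and are not given for 1 to 50 kb. The table gives no strand, so starts and ends of lncRNA genes are pooled here. The median fold was 7.61 inside lncRNA genes and 7.77 outside them.

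The 88 summits fell in 87 lncRNA genes, as some lie in overlapping genes and 8 genes hold more than 1 summit. Those whose symbol is neither a Gm number nor ends in Rik were 8, with the LOC identifier LOC115487747 among them. D5Ertd615e, between Ldb2 and Qdpr, held the strongest of them, with a fold of 11.8 (chr5:45049345-45049780). Nkx2-2os, which runs antisense beside the neural and endocrine homeobox gene Nkx2-2, held a peak of fold 9.25 that is also the one at the Gm39955 start. Mir670hg, a host gene of microRNAs, held one of fold 8.88, at 4.05 kb from Mir129-2. Lncpint, a lncRNA induced by p53, held a peak of fold 7.49 in the interval of Klf14.

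Of the other 4, LOC115487747 held a peak of fold 7.43 (chr11:113165139-113165650) 378 kb from Sox9, a gene of cartilage, valve and gonad development. Morrbid, a lncRNA that controls the lifespan of myeloid cells through its neighbour Bcl2l11, held a peak of fold 7.32 at 260 kb from Bcl2l11. The peak in Platr22, a lncRNA of pluripotent cells, had a fold of 7.28 and lay 0.255 kb from an end of the gene, 117 kb from Nr5a2. Zmiz1os1, beside Zmiz1, held a peak of fold 5.92. Of all lncRNA genes the 5 with the strongest peaks were Gm32293 (19.5), Gm31686 (18.5), Gm35440 (14.7), Gm40017 (12.7, in the interval of Edn3, which encodes endothelin 3) and Gm34809 (12.2, in the interval of the ETS factor gene Etv1).

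Tight clusters were rare. Neighbouring distal summits on a chromosome lay a median of 2891 kb apart, with 25 of 365 neighbouring pairs within 10 kb and 40 within 50 kb. Clusters of at least 3 summits, each within 50 kb of the next, numbered 3 and took in 17 peaks. The first was the 32 kb stretch before Alkbh8 with its 11 high-control summits in 9 regions. The second was 1.71 kb long (chr1:7396891-7398598) with 3 summits in 2 regions, folds of 5.45 to 7.40 and 2 summits inside the lncRNA gene Gm26901, between Pcmtd1 and Sntg1. The third was the region of 3 high-control summits between Tcp10c and Tcte2 (chr17:13550695-13553039). When lines of 1 region were counted once, only the stretch before Alkbh8 was left; with high-control peaks left out, only the cluster at Gm26901 was. Pairs were more common: 29 groups of 2 or more were found, with the 3 clusters among them. Some pairs were 2 summits of 1 region, as beside Gata6, or stood on high control signal, as between Hrh1 and Atg7. Other pairs lay near Smad2 (folds 11.1 and 16.8), Pax2 (7.28 and 12.2), Barx2 (8.15 and 11.8) and Bmp7 (8.16 and 10.8). Another lay between Dysf and Cyp26b1, the gene of a retinoic acid-degrading enzyme (9.03 and 9.40).

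By chromosome, the number of distal peaks per Mb of sequence beyond 50 kb ran from 0.0768 on X and 0.231 on chromosome 3 to 0.759 on chromosome 8 and 0.809 on chromosome 6. Chromosomes 6 and 8 were set apart because they had the highest densities, so their contrast with the others is only a description. Together they carried 79 of the 385 (20.5%) at 0.784 per Mb, against 0.359 on the others. Their distal peaks had a median control level of 3.16 against 2.19 and a median fold of 7.12 against 7.79. At a −log10 q-value of at least 20 the ratio of the densities fell from 2.18 to 1.21. Of the 96 peaks in that set, 15.6% had a high control level, against 5.97% of all distal peaks. The ratio in that set without high-control peaks was not computed. Chromosome 9 stood at 0.727, and at 0.407 without high-control peaks. The part of the higher control level in the counts of chromosomes 6 and 8, which include the Foxf1, Sall1 and Klf14 intervals, was not tested.

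**Figure D5:**
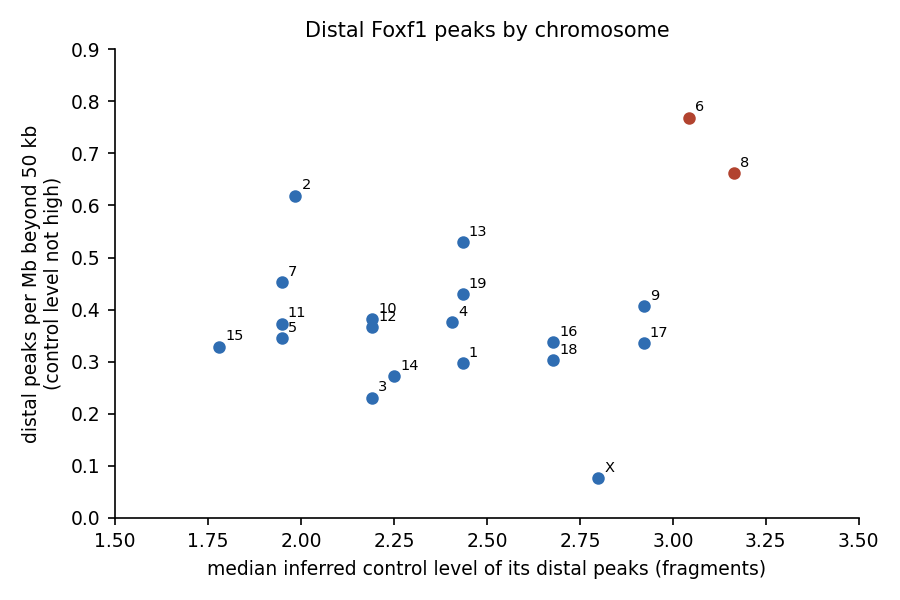
Distal Foxf1 peaks per Mb of sequence beyond 50 kb, without high-control peaks (vertical axis, from 0), against the median inferred control level of the distal peaks of the chromosome (fragments, linear axis); each point is 1 chromosome. Chromosomes 6 and 8 (red) are at the upper right with the highest control levels, and X is the lowest.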

How the data were processed

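Peak lists of 2 samples were used, the Foxf1 list for the results and the Hand1 list for overlap (at least 1 bp). Hand1 summits also served as a comparison for the CTCF match. Per the submitters' processing notes, Trim Galore 0.6.6, Bowtie2 2.3.4.3, SAMtools 1.9, deepTools 3.5.0 and MACS2 2.2.7.1 were named, and mm10 as build; their settings and the control used are not given in the sources used here. The fold enrichment is a ratio deposited by the authors, the −log10 p-values and −log10 q-values are the authors' deposited values, and the score in the deposited lists was not used. The lowest −log10 q-value in the Foxf1 list was 10.0. The authors' filters can remove weak peaks at high control levels.

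Fragments k and control level λ at each summit were solved from fold = (k + 1)/(λ + 1) and the Poisson p-value; k came out whole within 0.05 for 100% of 5703 Foxf1 peaks. These are inferred values. Distances were taken to both ends of 21627 protein-coding and 12697 lncRNA genes of the RefSeq table of GRCm38.p6, which gives no strand. The span of a chromosome ran between its outermost genes and peaks. Peaks outside chromosomes 1 to 19 and X were left out. The solving of k and λ and the CTCF search were tested on simulated data. The steps for distance, interval, cluster and overlap were tested on a few fixed examples. Python 3.11.15, pandas 2.3.3, numpy 2.4.6 and scipy 1.17.1 were used.

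Named were the 10 peaks of highest fold, the 10 intervals with most peaks, all clusters, peaks in named lncRNA genes with the 5 strongest in any lncRNA gene, 3 peaks on each side of the 50 kb limit, the 3 most remote, and up to 10 flanking genes a list. Other genes (those beside start-site peaks, pairs and Pax2, Klf14 and Hes1) were chosen after their values were seen. The distal peaks and the lists were chosen with earlier results of these data known. There was 1 list, and regions are not replicates, so no test was made; exact binomial intervals cover counting error only. Planned windows around every summit were not read because no genome sequence was used here, and promoter windows took their place.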

Additional observations from a re-analysis of the deposited data

How the results depend on the processing

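Of 93 alternatives over 11 results, 65 stayed within 1.5 times the main count or within the main value's 95% interval, and 28 moved. A limit of 25 kb gave 678 distal peaks, 117 intervals with 2 or more (main value 54), 14 clusters (main value 3) and 52 flanking genes of the fixed lists (main value 30). A limit of 100 kb gave 189 peaks, 9.52% with a high control level, 23 such intervals and 17 list genes. A −log10 q-value of at least 20 left 96 peaks, a density of 0.162 relative to all sequence (main value 0.193), a median fold of 10.4, 15.6% with a high control level, 6 intervals, 1 cluster, 9 list genes and a ratio of 1.21 for chromosomes 6 and 8. By construction, the 25 kb limit takes in more peaks and the other limits fewer. Clusters numbered 1 with lines of 1 region counted once, 1 without high-control peaks, 8 without predicted protein-coding genes, 6 with summits joined within 100 kb and 29 with groups of 2. The share with a high control level was 0 when such peaks were left out, 8.94% with Hand1-overlapping peaks kept 3.21% without the stretch before Alkbh8 and 10.5% without predicted genes, where the relative density was 0.217. Inside or within 10 kb of a lncRNA gene lay 40.3%, a wider measure than the 35.1% within 10 kb of a gene end. A CTCF match without mismatch stood in 9.09% of the 11 windows instead of 72.7%, against 7.56% at the other Foxf1 summits. The cause was not tested for the other changes. The CTCF alternatives and those without the stretch before Alkbh8 or without antigen receptor loci were chosen after seeing the data; the last moved none of the 11 results. No paired analysis was possible because each factor has only 1 peak list, and no replicate could be left out. Windows of 50, 100 and 200 bp around all summits were not run, since no genome sequence was used here. Peaks below the authors' q-value limit were not analysed here, so weaker distal sites were not detectable.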

Other observations

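Beside the 385 distal peaks, 29 Foxf1 peaks beyond 50 kb overlapped a Hand1 peak and were left out. Of these, 14 (48.3%) had a high control level.

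Genes for microRNAs, short RNAs that repress messenger RNAs, stood within 10 kb of a few distal peaks. Mir101a had distal summits at 2.02 kb (fold 7.34) and 9.21 kb (fold 9.98), both in the interval between Jak1 and Ak4. A peak of fold 7.79 lay 7.96 kb from Mir137, a microRNA of neurons, between Snx7 and Dpyd. Mir6363 had one at 9.71 kb with a fold of 6.25. Mir101c lay 4.86 kb from a high-control peak of the stretch before Alkbh8.

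Of the 13 distal summits inside genes that are neither protein-coding nor lncRNA genes, 7 lay in antigen receptor loci. The others lay in pseudogenes and in Platr25 (fold 6.22), and the most remote distal peak lay inside the pseudogene Gm18728.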
